A study of Mus musculus with 6 samples.

Results

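The components of the transforming growth factor-β (TGF-β) and bone morphogenetic protein (BMP) superfamily were examined in LSK-SLAM cells, the lineage-negative fraction of mouse bone marrow that carries c-Kit, Sca and CD150 but not CD48 and is enriched for hematopoietic stem cells (HSC). Members were chosen by gene name alone. Every probe was taken whose name starts with Tgfb followed by a digit, r or i, with Bmpr, Inhb or Acvr, whose name is Bmp or Gdf with a number or Smad or Ltbp with 1 digit, or is Inha, Smurf1, Smurf2, Tgif1, Tgif2, Ski, Skil, Nog, Chrd, Fst, Eng, Zfyve9 or Pmepa1. This gave 93 probes of 66 genes among 39429 probes that carry 31791 names. By known biology 23 of these genes belong to the TGF-β branch, 14 to the activin branch and 26 to the BMP branch, 2 serve all branches (Smad4 and Smad7), and Gdf15 signals outside the family's receptors.

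The RNA came from LSK-SLAM cells of secondary recipients (2T) and was hybridised in 1 colour to 6 Agilent whole mouse arrays. By the labels 3 arrays are WT and 3 are KO, which the study names p190-B-/-. The comparison asks which genes differ between transplanted stem cells with and without p190-B, the protein that the gene Arhgap5 encodes. Donor cells in both groups were fetal liver cells of a C57BL/6J background, from p190-B-/- embryos or their WT littermates, and were passed with competitor marrow through a primary and then a secondary lethally irradiated congenic host. The deletion is germline and lethal to the embryo, so it was present in every donor blood cell from the start. In both groups the cDNA was amplified before labelling, and the sort as described lists no gate for donor cells, so that LSK-SLAM cells of the competitor or the host may have been included. By the legend of the array data the cells came from 3 separate 2T mice of each group, isolated on 3 occasions. How these mice map to arrays is not in the labels, and p-values measure only the spread between these 3 samples a group.

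Ligands of this superfamily are dimers that bring type I and type II receptor kinases together on the cell surface. TGF-β is secreted in a latent complex with Ltbp proteins and, like the activins, signals through Smad2 and Smad3, while BMPs signal through Smad1, Smad5 and Smad9, and both kinds of receptor-activated Smad enter the nucleus with Smad4. Inhibitors act outside the cell (Nog, Chrd, Fst) and inside it (Smad6, Smad7, the Smurf ubiquitin ligases, Ski, Skil, Tgif1 and Tgif2). Within the bone marrow, active TGF-β helps to hold stem cells out of the cell cycle.

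Levels are given as the log2 of a probe's processed signal relative to the 75th percentile of its array, and differences as 2T-p190-B-/- minus 2T-WT on the same log2 scale. A probe counts as measured where the scanner software called it well above background. The 75th percentile itself ranged from 53.9 to 227 in 2T-WT and from 252 to 385 in 2T-p190-B-/-, and 2T-WT replicate 3 was the dimmest array. The arrays lay on 3 slides, of which the second held both groups (replicates 2 and 3 of 2T-WT with replicates 1 and 2 of 2T-p190-B-/-) and is called the shared slide. 2T-WT replicate 3 also stood apart in cell type markers: the summed signal of 8 B lymphocyte genes was 726 times its 75th percentile, against 4.58 to 6.45 times on the other 5 arrays, with Cd79a at 9.47 there and at or below −1.65 elsewhere. The summed levels of 6 other marker lists (HSC, red cell precursors, neutrophils, T lymphocytes, megakaryocytes, and stromal, bone and endothelial cells) overlapped between the groups. 2T-WT replicate 3 was also the highest array for HSC (150, beside 33.4 to 73.4 elsewhere), T lymphocytes (140, beside 31.3 to 85.4) and megakaryocytes (89.4, beside 23.1 to 57.6). It was the lowest for red cell precursors and inside the range of the other arrays for the remaining lists. Of the genes that define the sort, Slamf1 (CD150) was above background on 0 of 6 arrays, as was the HSC marker Procr, Kit was above it on 5, and both probes of Cd48, whose protein the sorted cells lack, were above it on all 6. The part of other cells in the results was not tested, and differences of at least 2-fold on 6 arrays that fell under 2-fold without 2T-WT replicate 3 are also given without it. In bulk RNA, fewer cells of a type and less RNA per cell cannot be told apart.

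Most of the signalling chain was measurable, with gaps at its core. Of the 93 probes, 58 probes of 44 genes were above background on at least 3 of 6 arrays and entered the test, against 63.8% of all probes with a value, and 39 probes of 30 genes were above it on all 6 arrays, against 34.9%. Above background on no array were 20 of the 93 probes, beside 16.8% of all probes with a value. The 12 genes with no probe above background on any array include the ligand Tgfb2 (2 probes), the BMP type I receptor Bmpr1a, the activin type II receptor Acvr2a (2 probes), the inhibitory Smad6 and Smad7, Ski, and the activin-binding follistatin (Fst). The other 5 are the ligands Bmp15, Gdf6, Gdf9 and Gdf10 and the adaptor Tgfbrap1. A missing signal sets no level of 0, since the background differs from array to array after scaling. The TGF-β branch had 16 of 23 genes tested, the BMP branch 19 of 26 and the activin branch 7 of 14. Of 7 activin receptor probes, 1 was tested.

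**Figure D1:**
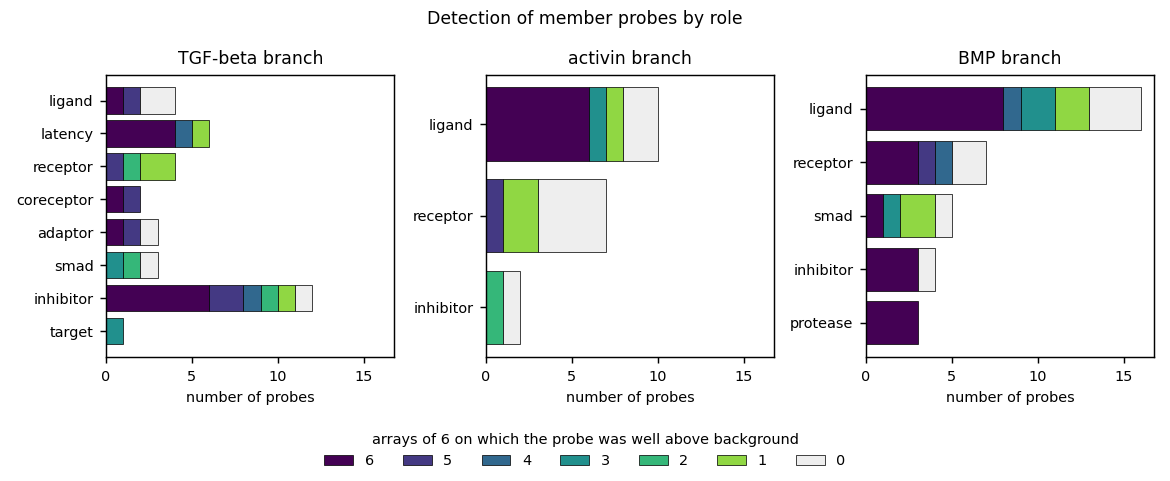
Number of member probes (x axis) by role (y axis) in the TGF-β, activin and BMP branches, with bars divided by the number of arrays, from 6 to 0, on which the probe was well above background; the 3 probes of Smad4 and Smad7 and the 1 of Gdf15 are not drawn. Ligands and inhibitors hold most of the probes above background on all 6 arrays, while activin receptors hold 4 of 7 probes above it on none, beside 16.8% of all probes with a value.

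Between genotypes, more members were lower than higher in 2T-p190-B-/- LSK-SLAM, as were probes in general. Of the 58 members tested, 41 had a lower mean and 17 a higher one, and over all probes 60.8% were lower. The median difference was −0.32 over the members and −0.33 over all 25160 probes tested, and 28 of the 58 lay below that latter value. By limma with Benjamini-Hochberg adjustment over all probes, 0 members had an adjusted p under 0.05 (0% of all probes), with a smallest adjusted p of 0.637. At an unadjusted limma p under 0.05 there were 2 members, both lower, beside 3.39% of all probes, and the methods' t-test also gave 0 after adjustment and 2 before it. Every 2T-p190-B-/- array lay below every 2T-WT array for 9 of 58 members, which is 15.5% beside 11.7% of all probes tested, and above for 0, beside 4.53%. Among members above background on all 6 arrays these counts were 7 of 39 (17.9%, beside 14% of all such probes) and 0 (beside 3.28%). Differences of at least 2-fold were found for 18 members on the lower side and 4 on the higher side, beside 27.9% and 15.9% of all probes. Without 2T-WT replicate 3, 12 of those 18 members and 2 of those 4 (Bmp3 and Smad5) were still at least 2-fold apart, and 15 of 58 members (25.9%) were at least 2-fold lower, beside 20.8% of all probes. The 6 lower members that fell under 2-fold were Skil probe 2, Smurf2 probe 1, Smad4 probe 1, Bmpr1b probe 2, Tgfb3 and Bmp4. The 95% intervals of single members spanned from 2.94 to 6.59 log2 units, so the number of arrays limits what could be told apart. With the slide as a block, which leaves the 4 arrays of the shared slide, the median was −0.50 over the members and −0.48 over all probes.

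The branches had different medians with overlapping members. The median was −0.60 for 23 TGF-β probes (18 lower, 5 higher), −0.40 for 8 activin probes (6 lower, 2 higher) and −0.12 for 24 BMP probes (14 lower, 10 higher). Of the 9 members without overlap between the groups, 6 were of the TGF-β branch (26.1% of its tested probes), 3 of the BMP branch (12.5%) and 0 of the activin branch (0% of 8 probes), beside 11.7% of all probes. Without 2T-WT replicate 3 the TGF-β median was −0.21, beside −0.24 for all probes, so its distance from the rest depended on that array, and without 2T-p190-B-/- replicate 1 it was −0.28, beside −0.34. Within the shared slide the medians were −0.98, −0.046 and −0.38 for TGF-β, activin and BMP. Over probes above background on all 6 arrays, for which the median of all probes was −0.44, they were −1.06 (13 probes), −0.40 (6 probes) and −0.23 (18 probes). Differences between branches were not tested.

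**Figure D2:**
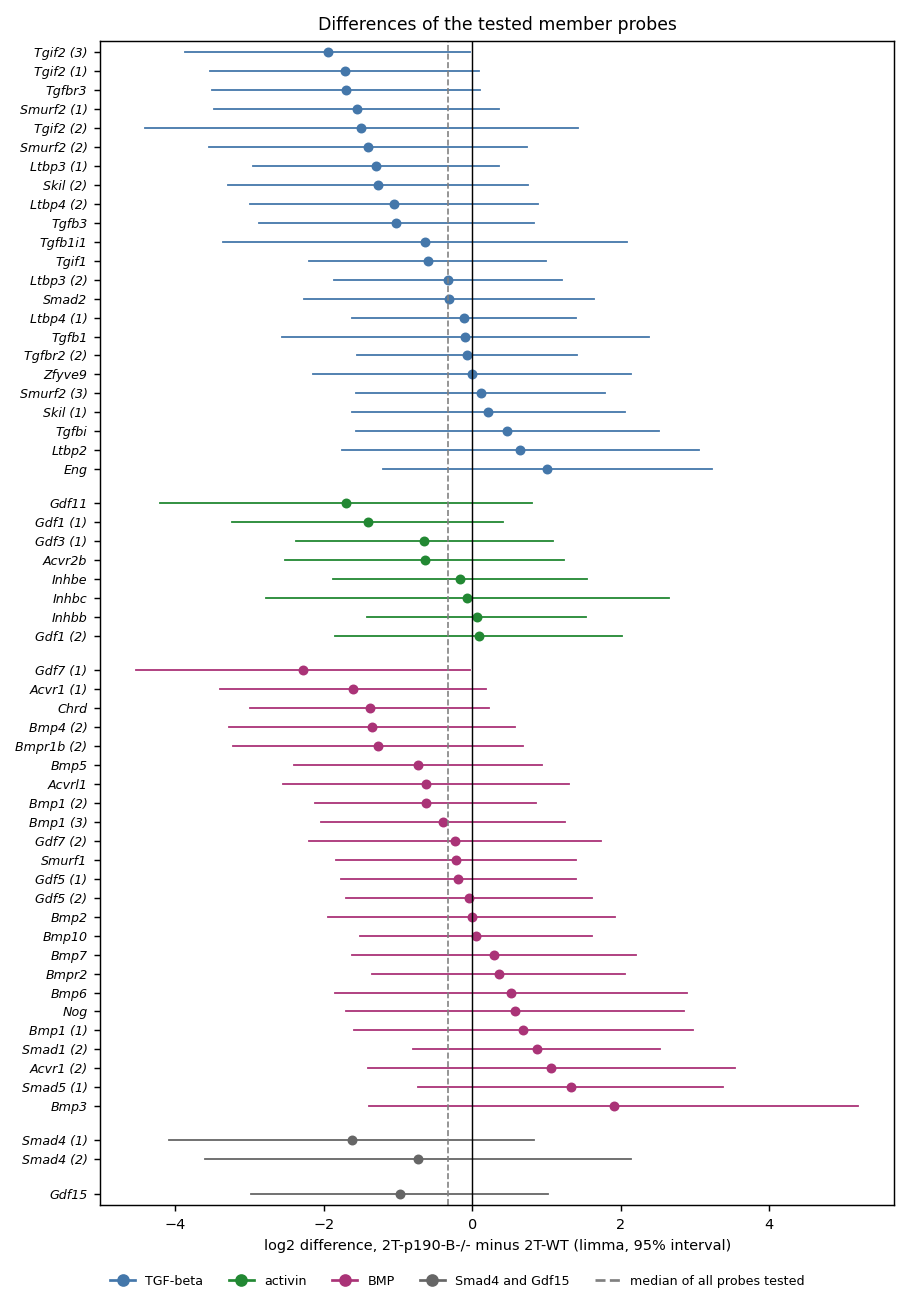
Log2 difference, 2T-p190-B-/- minus 2T-WT (x axis), of each of the 58 member probes tested (y axis, sorted within branch; the number in brackets is the probe's place by start position where a gene has several), with bars for the 95% interval of limma and a dashed line at the median of all probes tested, −0.33. The intervals of Tgif2 probe 3 and Gdf7 probe 1 are the only 2 that do not hold 0.

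Within the TGF-β branch, the intracellular inhibitors had the lowest median difference of any role. Of 9 tested probes of Tgif1, Tgif2, Skil and Smurf2, 7 were lower in 2T-p190-B-/- (60.8% of all probes were), 6 were at least 2-fold lower (27.9% of all probes), 4 had no overlap between the groups (11.7% of all probes), and the median difference was −1.40, beside −0.33. Without 2T-WT replicate 3, 7 of the 9 were still lower, 4 at least 2-fold, and the median was −0.82, beside −0.24 over all probes. These shares describe the 9 probes, which come from 4 genes, and the role was singled out after its values were seen. Tgif2 and Smurf2 have 3 probes each, and the first 30 bases of these probes are shown because probes of the same gene did not give the same value. Positions are those of the probe annotation, build mm9, with the strand of the transcript.
Tgif2 probe 1, chr2:156679317-156679376 (+): gaagcagcaagagccagcgccacctttgct
Tgif2 probe 2, chr2:156679946-156680005 (+): cttcccacaggatggttgtatagggaccag
Tgif2 probe 3, chr2:156680039-156680096 (+): accctattataaaagacagaaggaaaatat
Smurf2 probe 1, chr11:106682200-106682259 (−): tgccctatgtaacggtcttcaatagcacag
Smurf2 probe 2, chr11:106683108-106683167 (−): ggtggattttcattctttgctgggtcagct
Smurf2 probe 3, chr11:106683941-106684000 (−): atgtggctttgctgtggaatgatgggcacc

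Tgif2 encodes a homeodomain repressor that binds activated Smads. On its probe 1 the level was 4.85, 2.98 and 4.80 in 2T-WT, in the order of the replicate numbers, and 2.82, 2.73 and 1.92 in 2T-p190-B-/-. All 2T-WT arrays lay above all 2T-p190-B-/- arrays, but replicate 2 of 2T-WT by only a little. The difference was −1.72 (standard error 0.79, adjusted p = 0.637 by limma), −1.12 within the shared slide and −0.86 with another background correction (normexp). On probe 3, which lies farther 3′, the levels were 1.76, 2.83 and 4.15 in 2T-WT and 0.53, 0.66 and 1.69 in 2T-p190-B-/-. Again the groups did not overlap, with 2T-WT replicate 1 next to 2T-p190-B-/- replicate 3. The difference was −1.95 (standard error 0.84, unadjusted p = 0.047 and adjusted p = 0.637 by limma), −2.89 within the shared slide and −1.19 with normexp. Probe 2, between them, read −2.51, 1.73 and −3.17 in 2T-WT and −2.55, −2.42 and −3.46 in 2T-p190-B-/-. Its difference of −1.50 came from 2T-WT replicate 2, the only array of that group on which it was above background, and was 0.025 without it. For the 2 probes without overlap, an exact two-sided permutation test gave p = 0.1 each, the smallest that 3 arrays against 3 allow.

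Smurf2 encodes a ubiquitin ligase that marks TGF-β receptors and Smads for degradation. Its probe 1 read −0.84, −1.01 and 1.29 in 2T-WT and −1.95, −2.02 and −1.27 in 2T-p190-B-/-. The groups did not overlap, 2T-WT replicate 3 was the highest array, and the difference of −1.56 (standard error 0.83, adjusted p = 0.637 by limma) was −0.82 without it and −2.13 within the shared slide, which holds it. Probe 2 had no value on 2T-WT replicate 3, where the spot was an outlier, read 0.48 and −0.17 on the other two and −2.23, −1.28 and −0.23 in 2T-p190-B-/-. The groups were next to each other at their ends, and the difference fitted on these 5 arrays was −1.40 (standard error 0.91, adjusted p = 0.640 by limma), or −0.91 without 2T-p190-B-/- replicate 1 and likewise −0.91 with normexp. Probe 3, the most 5′ of the 3, read −0.59, 0.70 and 0.70 in 2T-WT and 0.77, −0.22 and 0.60 in 2T-p190-B-/-. There the groups overlapped almost fully, with a difference of 0.11 whose 95% interval ran from −1.57 to 1.79. The 3 Smurf2 probes thus gave different values, but their 95% intervals overlapped, and the gaps between probes were not tested.

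Skil (SnoN) encodes a co-repressor of Smad complexes that TGF-β signalling itself degrades. Its probe above background on all 6 arrays (probe 2) ranged from −0.46 to 2.16 in 2T-WT and from −1.37 to −0.26 in 2T-p190-B-/-, with a difference of −1.27. 2T-WT replicate 3 was its highest array, and without it the difference was −0.48. The other differed by 0.21, so the pair did not point one way. Tgif1, the paralog of Tgif2, ranged from −1.44 to −0.22 in 2T-WT and from −1.81 to −1.17 in 2T-p190-B-/-, a difference of −0.60 with overlap. Pmepa1 encodes a membrane protein that TGF-β induces and that holds back receptor-activated Smads. Its 2 probes overlap by 56 bases, of which 55 match, and are shown with the mismatch in capitals (A8G, probe 2 first, counted from the 5′ end of probe 2).
Pmepa1 probe 1, chr2:173049966-173050025 (−): ggtGccaatgttggcgttctgaaaagccgc
Pmepa1 probe 2, chr2:173049970-173050029 (−): ctttggtAccaatgttggcgttctgaaaag

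In spite of their shared sequence the 2 Pmepa1 probes were above background on different arrays. Probe 1 read −2.06, −3.61 and −3.32 in 2T-WT, above background on 2 arrays, and −5.38, −4.20 and −4.48 in 2T-p190-B-/-, above it on 0. Probe 2 read −4.64, −5.97 and −4.37 in 2T-WT and −6.96, −4.51 and −0.37 in 2T-p190-B-/-, and only that last array was above background. Both were measured on fewer than 3 arrays, so neither was tested. The measured means of probe 1 were −3.0 and −4.69, both near or under the lowest levels called above background, and no fold is given. Ski, a relative of Skil, was above background on no array.

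The ligands and their latency proteins came next in the branch. Tgfb1, the main TGF-β ligand of blood cells, has 1 probe at chr7:26489877-26489936 (+), which read −3.14, −1.45 and −0.67 in 2T-WT and −3.59, −1.85 and −0.10 in 2T-p190-B-/-. The lowest array of each group was replicate 1 and the highest replicate 3, and the difference of −0.094 was far inside that spread (95% interval −2.57 to 2.38, adjusted p = 0.983 by limma). Its sign was not fixed: it was 0.45 without 2T-WT replicate 3, −1.66 within the shared slide and −0.72 with normexp. Tgfb3 ranged from −0.39 to 1.48 in 2T-WT and from −1.10 to 0.40 in 2T-p190-B-/-, with overlap and a difference of −1.02, or −0.53 without 2T-WT replicate 3. Tgfbi, a matrix protein that TGF-β induces and that shares only the name, was above background on 1 2T-WT array and 2 2T-p190-B-/- arrays and differed by 0.47.

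Ltbp3, which holds latent TGF-β in the matrix, had on its probe 1 the lowest difference among the tested probes of latency proteins. Its probe 1 at chr19:5758082-5758141 (+) read 3.07, 3.64 and 2.96 in 2T-WT and 1.08, 2.64 and 2.07 in 2T-p190-B-/-. The groups did not overlap, and no 2T-WT array stood apart from the other 2. The difference was −1.29 (standard error 0.72, adjusted p = 0.637 by limma), −1.44 within the shared slide and −0.53 with normexp. Its probe 2, which was above background on 2 arrays a group, differed by −0.32. Ltbp4, which carries TGF-β1, ranged from 2.24 to 2.80 in 2T-WT and from 2.03 to 2.68 in 2T-p190-B-/- on probe 1, with a difference of −0.11. Its probe 2 ranged from −1.24 to 1.04 and from −2.04 to −0.93, with a difference of −1.06 and overlap, or −0.33 without 2T-WT replicate 1. Ltbp2, a matrix protein that binds no latent TGF-β, spread from −1.40 to 1.63 in 2T-WT and from −0.0017 to 2.51 in 2T-p190-B-/-, with a difference of 0.64. Ltbp1 read −4.44, −4.85 and −2.40 in 2T-WT and −5.37, −2.06 and −5.07 in 2T-p190-B-/-, and since it was above background on 1 array only it was not tested.

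The signalling receptors themselves were at the edge of detection. Tgfbr1, the type I kinase, has a probe at chr4:47424946-47425005 (+) that read −2.89, −6.27 and −4.49 in 2T-WT and −7.12, 0.78 and −6.10 in 2T-p190-B-/-, above background only on 2T-p190-B-/- replicate 2. Its second probe, at chr4:47427736-47427795 (+), read −4.53, −3.60 and −4.30 in 2T-WT and −2.19, −4.93 and −5.89 in 2T-p190-B-/-, above background on 1 array of each group. Neither could be tested, and the 2 probes were bright on different arrays. Tgfbr2, the type II kinase, has a probe at chr9:115999496-115999555 (−) that read −2.37, −2.43 and −2.64 in 2T-WT and −2.75, −2.21 and −2.70 in 2T-p190-B-/-. All 6 values lay within a narrow band, and the difference was −0.070 (95% interval −1.55 to 1.41, adjusted p = 0.978 by limma), or −0.87 with normexp, where the median of all probes was −0.47. Its other probe read −4.41, −4.28 and −3.64 in 2T-WT and 0.55, −5.11 and −5.31 in 2T-p190-B-/-, above background only on 2T-p190-B-/- replicate 1. The spread of Tgfbr2 probe 2 (SD 0.14 in 2T-WT and 0.30 in 2T-p190-B-/-) was small beside the median over all probes tested, 1.05 and 0.816, while both groups lay near the background.

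Both co-receptors were tested, with 1 lower and 1 higher in 2T-p190-B-/-. Tgfbr3 (betaglycan), which presents TGF-β to Tgfbr2 and binds inhibin, has a probe at chr5:107535818-107535877 (−) that read −1.04, −2.27 and −0.01 in 2T-WT and −3.09, −2.78 and −2.58 in 2T-p190-B-/-. The groups did not overlap, with the 2T-p190-B-/- arrays close together and the 2T-WT arrays spread. All 2T-p190-B-/- values of this probe lay under −2.19, the lowest level called above background on 2T-WT replicate 3. The value of 2T-p190-B-/- replicate 2, −2.78, was next to the lowest such level on its own array, −2.86. The difference was −1.70 (standard error 0.79, adjusted p = 0.637 by limma), −1.79 within the shared slide and −1.16 without 2T-WT replicate 3. Eng (endoglin, CD105), a co-receptor that HSC carry, read 0.97, −1.28 and −2.34 in 2T-WT and −0.26, −0.17 and 0.81 in 2T-p190-B-/-. It was one of the 4 members at least 2-fold higher, at 1.01 (standard error 0.96, adjusted p = 0.728 by limma), and the groups overlapped. 2T-WT replicate 3, where the probe was not above background, was the lowest array, and the difference was 0.28 without it. Of the adaptors, Tgfb1i1 (Hic-5), a focal adhesion protein that TGF-β induces, spread over more than 4 log2 units in 2T-p190-B-/-, from −4.38 to −0.09, beside −3.12 to −1.09 in 2T-WT, with a difference of −0.63. Zfyve9 (SARA), which brings Smad2 to the receptor, differed by −0.0042, with an interval from −2.15 to 2.14 on 5 arrays.

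The Smads that carry the TGF-β signal gave little. Smad2 read −4.49, −3.11 and −2.17 in 2T-WT and −4.41, −2.83 and −3.49 in 2T-p190-B-/-, above background on 1 and 2 arrays. The groups overlapped, and the difference of −0.32 (95% interval −2.27 to 1.64) was 0.23 without 2T-WT replicate 3, −1.25 with normexp and −0.98 within the shared slide. Smad3 had 1 probe above background on 0 arrays, and the other was above it on replicate 1 of each group, at 2.58 in 2T-WT and −4.60 in 2T-p190-B-/-. Smad4, the partner of all receptor-activated Smads, was bright on both of its probes. Probe 1 read 4.68, 4.34 and 7.58 in 2T-WT and 3.75, 2.83 and 5.14 in 2T-p190-B-/-, with a difference of −1.63, or −0.60 without 2T-WT replicate 3. Probe 2 read 1.27, 3.55 and 4.57 in 2T-WT and 1.33, 1.12 and 4.76 in 2T-p190-B-/-, with a difference of −0.73. On each probe replicate 3 was the highest array of its group, and the groups overlapped.

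**Figure D3:**
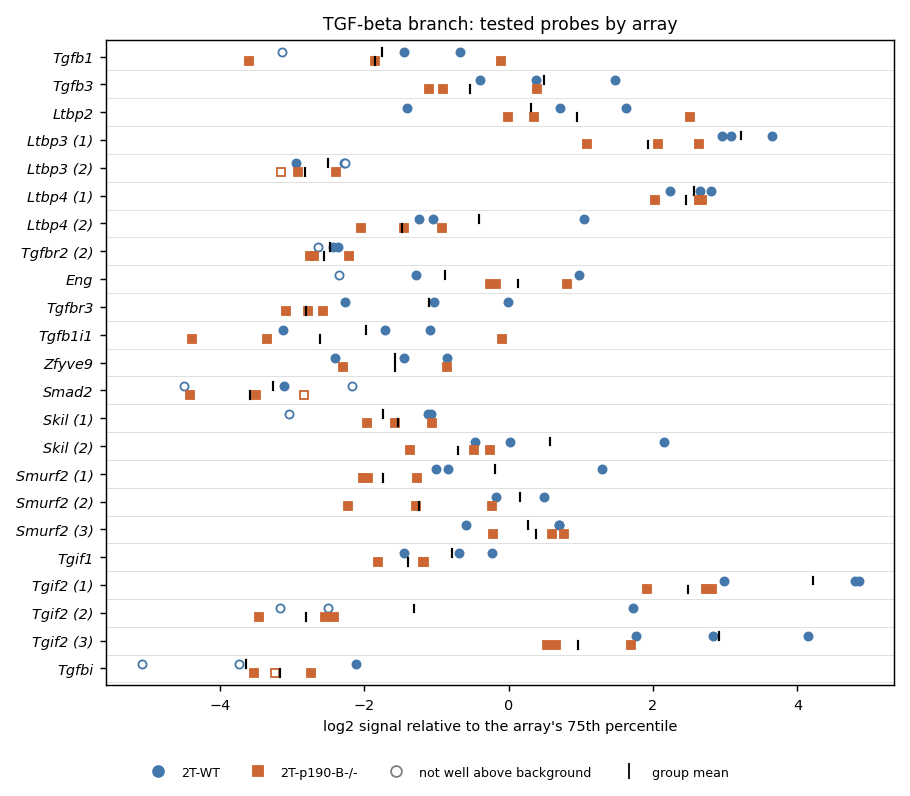
Log2 signal relative to the array's 75th percentile (x axis) of the 23 tested probes of the TGF-β branch (y axis) on each of 3 2T-WT arrays (circles) and 3 2T-p190-B-/- arrays (squares), with open symbols where the probe was not well above background and a vertical line at each group's mean. Both outer Tgif2 probes, Smurf2 probes 1 and 2, Tgfbr3 and Ltbp3 probe 1 show no overlap between the groups, while Tgfb1 and Tgfbr2 do.

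In the BMP branch, members without overlap were spread over roles. Chrd (chordin), a secreted antagonist that binds BMPs, has a probe whose annotated span on chromosome 16, from 20739049 to 20739221, is 173 bases and so crosses an intron. It read 1.98, 2.58 and 2.98 in 2T-WT and 1.42, 0.48 and 1.50 in 2T-p190-B-/-. The groups did not overlap and were of like spread, and the difference was −1.38 (standard error 0.70, adjusted p = 0.637 by limma), −1.83 within the shared slide and −0.66 with normexp. The other secreted antagonist measured, Nog (noggin), ranged from −0.14 to 2.73 in 2T-WT and from 0.85 to 3.15 in 2T-p190-B-/-, a difference of 0.58 in the other direction and well within its spread. Smurf1, the BMP-directed relative of Smurf2, ranged from 0.77 to 1.49 and from 0.50 to 1.72, a difference of −0.22.

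Of the BMP receptors, 4 of 5 genes were tested. Bmpr1b, a type I receptor, read −2.37, −2.27 and 0.05 in 2T-WT and −2.61, −3.19 and −2.59 in 2T-p190-B-/- on the probe at chr3:141503374-141503433 (−). The groups did not overlap, but 2T-WT replicate 3 was far above the rest. The difference was −1.27 (standard error 0.85, adjusted p = 0.640 by limma) with it and −0.48 without it. Bmpr1b's other probe was above background on no array. Acvrl1 (ALK1), a receptor for Gdf2 and Bmp10 best known from endothelium, ranged from 2.33 to 4.85 in 2T-WT and from 2.36 to 3.18 in 2T-p190-B-/-, with a difference of −0.63. Bmpr2, the type II receptor, ranged from 0.21 to 1.01 and from 0.38 to 2.03, with a difference of 0.36 and overlap.

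Acvr1 (ALK2), a type I receptor for BMPs, had the widest gap between probes of the same gene. The first 30 bases of its probes are shown with those of Gdf7, the pair with the gap next in size.
Acvr1 probe 1, chr2:58298937-58298996 (−): acgctgtggggggaaatgcatcttcttcgg
Acvr1 probe 2, chr2:58299580-58299639 (−): attaagacagtggctctctgcgtatctttc
Gdf7 probe 1, chr12:8304754-8304813 (−): acatcgatgccgccaacaacgtggtctaca
Gdf7 probe 2, chr12:8304980-8305039 (−): aagtcactgcacgtggactttaaggagctg

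The 2 Acvr1 probes start 643 bases apart. Probe 1 read 1.33, 0.29 and 1.97 in 2T-WT and 0.41, −0.99 and −0.67 in 2T-p190-B-/-. The groups crossed at a single pair of arrays, and limma gave −1.61 as the difference (standard error 0.78, adjusted p = 0.637). Probe 2 read 0.94, 0.59 and −2.86 in 2T-WT and 1.17, 0.26 and 0.45 in 2T-p190-B-/-. Its difference of 1.07 came from 2T-WT replicate 3, where the probe was not above background and where probe 1 had its highest value, and was −0.14 without that array. No direction can be given for Acvr1 from these probes.

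The BMP ligands lay on both sides of 0. Gdf7, a ligand known from the nervous system, had the lowest difference of all members on its probe 1, which read 2.30, −0.09 and 3.33 in 2T-WT and −1.05, −0.37 and 0.12 in 2T-p190-B-/-. The groups overlapped through 2T-WT replicate 2, and the difference was −2.28 (standard error 0.98, unadjusted p = 0.048 and adjusted p = 0.637 by limma), −1.54 without 2T-WT replicate 3, −2.33 within the shared slide and −1.42 with normexp. Its probe 2, whose start lies 226 bases away, ranged from 2.71 to 5.09 in 2T-WT and from 3.64 to 4.53 in 2T-p190-B-/-, with a difference of −0.23. Bmp4, a ligand of early blood development, ranged from 4.16 to 6.55 in 2T-WT and from 3.96 to 4.60 in 2T-p190-B-/- on its measured probe, a difference of −1.35 with overlap through 2T-WT replicate 2, or −0.92 without 2T-WT replicate 3. The other Bmp4 probe was far dimmer. It was above background only on 2T-WT replicate 2, at −2.06, and was not tested. Bmp5 ranged from −1.07 to 0.03 and from −2.0 to −0.60, a difference of −0.74. Bmp6, the liver's iron-sensing ligand, ranged from −1.51 to 0.67 and from −1.71 to 1.46, with a difference of 0.52.

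Other BMP ligands were bright and near equal. Bmp10, known from the heart, ranged from 4.55 to 5.18 in 2T-WT and from 4.33 to 5.36 in 2T-p190-B-/-, with a difference of 0.053. Gdf5, a ligand of joint formation, ranged from 4.68 to 5.99 and from 5.0 to 5.34 on probe 1, and from 3.29 to 4.76 and from 3.44 to 4.31 on probe 2. Its differences were −0.19 and −0.045, and both probes of this gene thus gave almost the same value. The 95% intervals of these 3 probes ran from −1.77 at the lowest to 1.62 at the highest, so a 2-fold change either way is inside them. Bmp3, an atypical BMP that opposes the others, had the highest difference of all members, 1.90 (standard error 1.43, adjusted p = 0.669 by limma), but was above background on only 1 2T-WT array and 2 2T-p190-B-/- arrays. Bmp2 and Bmp7, above background on 4 and 3 arrays, differed by −0.0077 and 0.29.

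Bmp1 is no ligand but a protease that cuts procollagen and chordin, and its 3 probes were above background on all arrays. Probe 2 read 3.33, 2.72 and 2.87 in 2T-WT and 2.31, 2.17 and 2.56 in 2T-p190-B-/-, without overlap and with a difference of −0.63. Probe 3 ranged from 2.55 to 2.80 and from 1.74 to 3.22, a difference of −0.39. Probe 1 ranged from 1.72 to 4.80 and from 3.60 to 5.25, a difference of 0.69 that came from a low value on 2T-WT replicate 3 and was −0.30 without it. Of the BMP Smads, Smad1 ranged from 0.41 to 1.18 in 2T-WT and from 0.74 to 2.30 in 2T-p190-B-/- on its measured probe, a difference of 0.86 (95% interval −0.80 to 2.53) with overlap.

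Smad5 was the only member above background on every array of one group and on none of the other, on the probe at chr13:56838912-56838971 (+). It read −2.94, −4.40 and −3.16 in 2T-WT and −2.69, −0.65 and −3.19 in 2T-p190-B-/-. The values nevertheless overlapped, since the lowest level called above background differs from array to array, and replicate 2 of 2T-p190-B-/- was the only array that stood out. The group means were −3.50 and −2.18. With each 2T-WT array set to the dimmest signal called above background on it, 2T-p190-B-/- was 1.67-fold brighter, a value without a test. That fold holds for these floors only, since with 1 common floor on all 6 arrays the difference was 0.51 on the log2 scale, a smaller one. The fitted difference was 1.32 (adjusted p = 0.640 by limma). It was 0.56 without 2T-p190-B-/- replicate 2, 0.87 without 2T-WT replicate 2, 2.11 within the shared slide and −0.41 with normexp. Smad5's other probe went the opposite way, above background on 1 2T-WT array and on 0 2T-p190-B-/- arrays. Smad9 was above background only on 2T-p190-B-/- replicate 2.

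The activin branch had 8 probes tested, mostly of ligands. Inhbb, the βB subunit of activin and inhibin, read 3.35, 3.16 and 3.22 in 2T-WT and 3.30, 3.04 and 3.56 in 2T-p190-B-/-. Its spread in 2T-WT was the smallest among members above background on all arrays (SD 0.095, beside 0.26 in 2T-p190-B-/-), and the difference was 0.056 (95% interval −1.41 to 1.53). Inhbe, a liver subunit, ranged from −1.90 to −0.62 and from −2.28 to −0.96, with a difference of −0.16. Inhbc, above background on 3 arrays, differed by −0.066. Inhba, whose protein forms activin A, was above background on 1 2T-WT array, and Inha, the subunit that turns an activin into an inhibin, on 1 array of each group.

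Gdf11, a ligand that uses activin receptors, ranged from 0.89 to 3.71 in 2T-WT and from −0.47 to 2.61 in 2T-p190-B-/-. Its difference of −1.70 (standard error 1.09, adjusted p = 0.637 by limma) came with overlap, since 2T-WT replicate 3 was the lowest array of its group, and was −2.59 without that array. Gdf3, a ligand of early embryos, ranged from 0.94 to 2.62 and from 0.64 to 1.59 on its measured probe, a difference of −0.64. The probes of Gdf1, whose transcript it shares with a ceramide synthase gene, differed from each other: probe 1 ranged from −0.04 to 1.05 in 2T-WT and from −1.87 to 0.24 in 2T-p190-B-/-, a difference of −1.41. Probe 2 ranged from −1.21 to 0.99 and from −0.54 to 0.97, a difference of 0.084. Among the receptors, Acvr2b was tested and differed by −0.64, and Acvr1b and Acvr1c were above background on 1 array each. Gdf15, a stress-induced ligand outside the branches, had no value on 2T-WT replicate 1 (an outlier spot), read 3.89 and 5.33 on the other two and 3.34, 3.47 and 4.08 in 2T-p190-B-/-, a difference of −0.98 on 5 arrays.

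**Figure D4:**
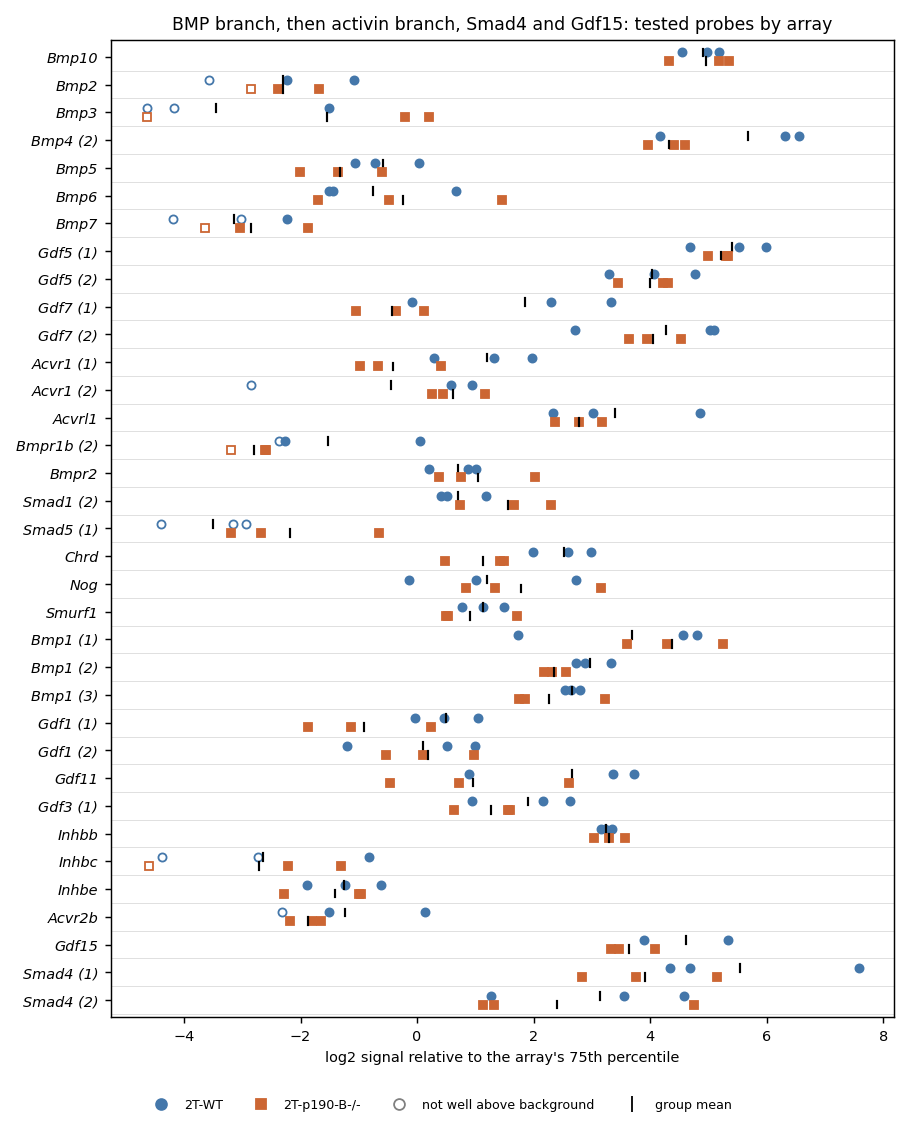
Log2 signal relative to the array's 75th percentile (x axis) of the tested probes of the BMP branch, the activin branch, Gdf15 and Smad4 (y axis, top to bottom) on each of 3 2T-WT arrays (circles) and 3 2T-p190-B-/- arrays (squares), with open symbols where the probe was not well above background and a vertical line at each group's mean. Chrd, Bmpr1b probe 2 and Bmp1 probe 2 show no overlap between the groups, while Inhbb, Bmp10 and Gdf5 lie almost on top of each other.

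Probes of the same gene often gave different values, and the gaps between them were not tested. Of 11 member genes with at least 2 probes tested, 6 had differences of the same sign on all probes and 5 (Bmp1, Acvr1, Skil, Smurf2 and Gdf1) did not. The gap between the lowest and the highest difference within a gene had a median of 1.31 on the log2 scale and reached 2.67 for Acvr1. Tgif2 was the only one of the 11 whose tested probes were all at least 2-fold lower, with a gap of 0.45, though its probe 2 rested on 1 array. Genes with only 1 tested probe are outside these counts. Among them, Bmp4, Gdf3 and Smad1 each had 1 probe above background on all 6 arrays and another above it on 1 array (Bmp4) or 0 arrays. Whether probes of a gene hit different transcripts, and whether they lie in coding or untranslated sequence, was not examined.

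**Figure D5:**
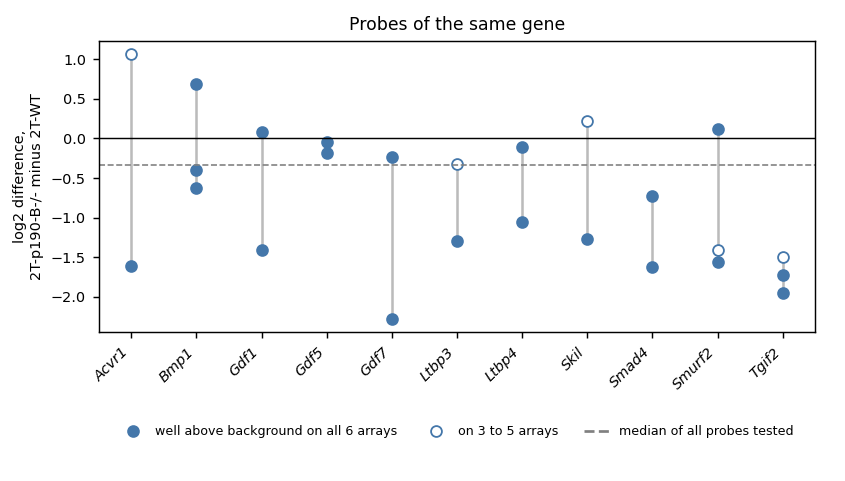
Log2 difference, 2T-p190-B-/- minus 2T-WT (y axis), of each tested probe of the 11 member genes with at least 2 tested probes (x axis), filled where the probe was above background on all 6 arrays, with a grey line from the lowest to the highest probe and a dashed line at −0.33, the median of all probes tested. The lines of Acvr1, Bmp1, Gdf1, Skil and Smurf2 cross 0.

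Genes around the pathway were counted from 3 lists. Over all probes tested, 60.8% were lower and the median difference was −0.33. Of TGF-β and BMP target genes, 20 probes of 18 genes were tested, 10 lower and 10 higher, with a median of 0.10. By limma 0 had an adjusted p under 0.05 and 1 (5%, beside 6.57% of all probes in either direction) an unadjusted p under 0.05, Junb, an AP-1 factor, which read −1.51, −2.37 and −3.33 in 2T-WT and 0.09, −1.20 and 0.82 in 2T-p190-B-/- (difference 2.31, adjusted p = 0.637 by limma). Its groups did not overlap, and 2T-p190-B-/- was the higher one. In this list 1 probe was without overlap on the lower side and 1 on the higher, beside 11.7% and 4.53% of all probes. Of extracellular regulators outside the members, 26 probes of 22 genes were tested, 13 lower and 13 higher, with a median of −0.21, 0 past the adjusted p and 3 (11.5%, beside 6.57%) past the unadjusted p of limma. These were Fstl1, a follistatin-like protein, at −1.80, Bgn (biglycan), a matrix proteoglycan, at 1.58, and Sostdc1, a secreted BMP antagonist, at 3.26. Without overlap between the groups were 4 of the 26 probes on the lower side and 3 on the higher.

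Sostdc1 read −2.56, −2.73 and −2.69 in 2T-WT and −0.09, 1.37 and 0.50 in 2T-p190-B-/- on the probe concerned (adjusted p = 0.462 by limma). The groups were far apart, but the probe was above background on only 1 2T-WT array, and its second probe differed by −0.63. Of cytoplasmic and nuclear partners, 26 probes of 24 genes were tested, 16 lower and 10 higher, with a median of −0.44, 0 past the adjusted p and 3 (11.5%, beside 6.57%) past the unadjusted p of limma. In this list 5 probes were without overlap on the lower side and 2 on the higher, beside 11.7% and 4.53% of all probes. Fkbp1a (FKBP12), which keeps type I receptors off, read 9.25, 8.28 and 9.75 in 2T-WT and 6.92, 7.42 and 7.33 in 2T-p190-B-/-, without overlap and with a difference of −1.87. Rbl1 (p107), a pocket protein that works with Smad3, read 3.35, 2.40 and 2.44 and then 0.44, 0.23 and 0.97, also without overlap and with a difference of −2.18. Rbx1, a subunit of ubiquitin ligases, was higher, at 2.07. All 3 had an adjusted p of 0.637 by limma. Further probes of these genes were too dim to be tested. That of Fkbp1a was above background on 1 2T-p190-B-/- array and that of Rbl1 on 0 arrays. Those of Rbx1 were above it on 0 arrays and on 1 2T-p190-B-/- array.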

How the data were processed

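RNA of LSK-SLAM cells was measured on 6 single-colour Agilent arrays, 3 per genotype, grouped and numbered by the sample labels. For each array the authors deposited a scanner file (Feature Extraction 10.5.1.1) in which the processed signal is a linear intensity, corrected for background and not scaled between arrays. They also deposited 1 value per spot, an intensity that differs from this signal only by 1 divisor per array (within 0.00126%). Probe positions are mm9 as annotated in the files. Accessions of 91 of the 93 member probes were found in a RefSeq gene table (assembly GRCm38.p6), each with the same symbol, and this table gave names only.

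Control spots were left out, as were 296 to 509 outlier spots on each array, and 0 spots were saturated. Processed signals were divided by the array's 75th percentile, logged to base 2 and averaged over spots of a probe. Probes called above background on 3 or more of 6 arrays were fitted with limma 3.58.1 in R 4.3.3 (lmFit and eBayes, no covariates, Benjamini-Hochberg over all probes tested), and the steps were tested on simulated data. Precision is limited by the number of arrays.

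Each array's values are given for Tgfb1, Tgfbr1, Tgfbr2, Tgfbr3, Smad2, Ltbp1, Tgif2 and Smurf2, for probes with a log2 difference of at least 1 and no overlap of the groups, for probes with an unadjusted p under 0.05, and for probes above background on every array of one group and none of the other. Probes above background on all 6 arrays are given by range and difference. Other values by array (Smad3, Smad4, Eng, Acvr1, Bmp1, Inhbb, Gdf15 and Pmepa1) were added after they were seen. The members, branches and gene lists were chosen with earlier results of these data known. Alternatives were quantile normalization, normexp (offset 50), leaving out the filter on dim probes or asking for all 6 arrays above background, the deposited values per spot, blocks for slide or for replicate number, a robust variance with an intensity trend, the methods' t-test, the 75th percentile over probes above background on all 6 arrays, and each array left out in turn. A common floor, chosen after seeing the data, set all values below −2.19, the highest over arrays of the lowest level called above background, to that level.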

Additional observations from a re-analysis of the deposited data

How the results depend on the processing

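The count of members past an adjusted p under 0.05 was 0 in every alternative run. The median over members moved to −0.79 with no filter on dim probes and to −0.63 where all 6 arrays had to be above background (−0.55 and −0.44 over all probes), and from −0.47 to −0.21 with 1 array left out. The TGF-β median was −1.06 over probes above background on all 6 arrays and ran from −0.79 to −0.21 with 1 array left out, the latter without 2T-WT replicate 3. The BMP median was 0.41 after quantile normalization, which brought the median of all probes to −0.11, −0.63 with no filter, and ran from −0.41 to 0.12 with 1 array left out, positive without 2T-WT replicate 2. The activin median was −0.92 with no filter and ran from −0.86 to 0.078 with 1 array left out, positive without 2T-WT replicate 1. Members without overlap on the lower side numbered 15 with no filter and 5 with the 75th percentile over probes above background on all 6 arrays, which brought the median of all probes to −0.058, and 11 to 16 with 1 array left out, where fewer arrays make overlap rarer. On the higher side they numbered 1 after quantile normalization and 1 with that other percentile, and 0 to 2 with 1 array left out. Members at an unadjusted p under 0.05 numbered 2, against 0 after quantile normalization or with the other percentile, 1 with the deposited values per spot, 4 with normexp, with the slide as a block and under the filter that asks for all 6 arrays, 6 with the common floor, and 0 to 5 with 1 array left out.

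The differences of Tgif2 probes 1 and 3, Smurf2 probes 1 and 2, Tgfbr3, Ltbp3 probe 1, Chrd, Bmpr1b probe 2 and Gdf7 probe 1 kept their sign in every alternative run. Most of this was fixed in advance. All but Gdf7 probe 1 were named for groups without overlap, so leaving out an array or blocking could not reverse them. The filters on dim probes, the intensity trend and the methods' t-test leave a probe's difference as it is. Only alternatives that change the values themselves could have reversed these probes. With the common floor Tgfbr3 was −1.11, Bmpr1b probe 2 was −0.74 and Smad5 was 0.51. Smad5 was −0.41 with normexp, and with 1 array left out Tgif2 probe 2 ran from −2.42 to 0.025 (without 2T-WT replicate 2). Smad2 was −1.25 with normexp (unadjusted p = 0.047 by limma), −0.98 with the slide as a block and −0.0049 with the common floor, and ran from −0.94 to 0.23 with 1 array left out, positive without 2T-WT replicate 3 or 2T-p190-B-/- replicate 1 (0.097). Smurf2 probe 3 was −0.033 with normexp and −0.42 with the slide as a block, and ran from −0.32 to 0.42 with 1 array left out, negative without replicate 1 of either group. Tgfb1 was −0.72 with normexp, −1.66 with the slide as a block, 0.028 with the deposited values per spot, 0.18 with the other percentile and 0.057 with the common floor, and ran from −0.97 to 0.78 with 1 array left out, positive without 2T-WT replicate 2 or 3 or 2T-p190-B-/- replicate 1. Tgfbr2 probe 2 was −0.87 with normexp, 0.068 after quantile normalization, 0.051 with the deposited values per spot, 0.059 with the slide as a block and 0.20 with the other percentile, ran from −0.24 to 0.028 with 1 array left out, positive without 2T-p190-B-/- replicate 1 or 3, and lay at the common floor on every array. Causes were not tested.

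For arrays of the same replicate number, deviations from the group mean had correlations over probes of 0.0094, 0.016 and 0.087. For arrays of different numbers these ran from −0.074 to 0.067. With 3 arrays a group such values cannot tell whether arrays of the same number were isolated together, and the labels do not say. With the replicate block the median over members stayed −0.32, 0 members passed the adjusted p and 2 the unadjusted one.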
